A study of Homo sapiens with 12 samples.

Results

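Expression of YAP5SA, switched on for 24 h in differentiated human podocytes, was followed across all genes in 6 of the 12 libraries of the study. The members were chosen from the labels alone: 3 libraries of the YAP5SA line given doxycycline at 0.1 µg/ml (called induced here) and 3 of the same line without it (uninduced). Podocytes are the cells whose interlocking foot processes form the outer layer of the kidney's filtration barrier. All 12 libraries came from a conditionally immortalized podocyte line with a temperature-sensitive SV40 large-T antigen; the cells divide at 33 °C and had spent 12 days at 37 °C, where the antigen is inactive, before treatment. The YAP5SA line carries pCW-(FLAG-NLS-)YAP5SA, a drug-inducible construct for a FLAG-tagged YAP with a nuclear localization signal, and the control line carries pCW-eGFP, for a green fluorescent protein. The control line was also kept without doxycycline or given the same dose for 24 h, with 3 libraries each. The labels give no clone, construct promoter or source of the replicates, so the p-values describe the spread among these libraries, part or all of which may be technical.

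YAP, encoded by YAP1, is a transcriptional co-activator without a DNA-binding domain of its own. The kinases LATS1 and LATS2, at the end of the Hippo pathway, phosphorylate it on serines, which holds it in the cytoplasm or marks it for destruction. In YAP5SA those serines are replaced by alanines, so the protein escapes the kinases and can enter the nucleus, where it works mostly with the DNA-binding TEAD factors. Among the best known targets are the matricellular genes CCN1 and CCN2 and the pathway's own inhibitors. In podocytes YAP responds to the stiffness and stretch of the matrix.

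Libraries held 24477592 to 25993413 counts, with 3.1 to 3.4% from mitochondrial genes. Levels are in CPM, with library sizes adjusted by TMM factors, and 3 values in a row are always replicates 1, 2 and 3. A gene is said to have risen or fallen where edgeR's quasi-likelihood test, fitted to all 12 libraries, gave a Benjamini-Hochberg adjusted p below 0.05 over the 17470 genes tested; errors beside log2 fold changes are standard errors (SE). On induction 3338 genes (19.1%) changed: 1717 rose (9.83%) and 1621 fell (9.28%). The 3 induced libraries did not overlap the 3 uninduced ones in CPM for 6046 genes (34.6%; 17.8% with induced higher, 16.8% with induced lower), among them 98.7% of the genes that rose and 98.4% of those that fell. Most changes were small, with a median log2 fold change of 0.32 among the genes that rose and -0.37 among those that fell. At least 1 on the log2 scale was reached by 102 genes that rose (0.584% of those tested) and 166 that fell (0.95%), 268 in all (1.53%). Of those 102 genes 63 were protein-coding, as were 123 of the 166. Protein-coding genes were called in 22.2% of 13716 cases, long intergenic RNAs in 11.5% of 811 and antisense RNAs in 9.5% of 1053. Calls also became more frequent with the level, from 4.32% of genes below 1 CPM to 31.7% of genes above 100 CPM, where counts are more precise.

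YAP1 itself (ENSG00000137693, chromosome 11, GRCh38 positions 102110461 to 102233423, plus strand) stood at 220.5, 375 and 345 CPM in the uninduced libraries and at 1757, 1672 and 969.8 CPM in the induced ones. The groups did not overlap, and induced replicate 3 held much less than the other two. The log2 fold change was 2.22 ± 0.38 (adjusted p = 0.00374). The GFP libraries lay between 173 and 332 CPM and overlapped the uninduced ones. Counts per gene do not separate transcripts of the transgene from those of the cell's own YAP1. The difference between the lines in the response of YAP1 to doxycycline (interaction, 2.24 on the log2 scale) had an adjusted p of 0.0362; that call was lost without a filter on low counts and when any 1 library other than GFP without doxycycline replicate 1 or induced replicate 3 was left out (0.0571 to 0.0901). WWTR1, which encodes the paralogue TAZ, went from 226, 216 and 223 CPM to 237, 252 and 246 CPM (0.15 ± 0.03), a call lost when the 6 YAP5SA libraries were fitted alone.

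The promoters of 4 genes from the list of YAP and TAZ targets, and of the gene with the smallest p of all, RASAL2, show the sequence that TEAD factors are known to prefer. Each line gives the 250 bases before the RefSeq start (GRCh38.p14), 5′ to 3′ on the gene's own strand, with CATTCC or its reverse complement GGAATG in capitals. They are shown because these genes rose on induction and hold the motif; the match is a description of the letters only.
CCN2, chr6:131951373-131951622, minus strand: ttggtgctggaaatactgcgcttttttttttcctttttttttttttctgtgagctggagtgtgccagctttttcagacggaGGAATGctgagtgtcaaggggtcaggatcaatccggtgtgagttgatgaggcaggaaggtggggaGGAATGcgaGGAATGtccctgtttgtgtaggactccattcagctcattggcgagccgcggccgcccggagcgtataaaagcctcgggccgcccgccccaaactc
ANKRD1, chr10:90921088-90921337, minus strand: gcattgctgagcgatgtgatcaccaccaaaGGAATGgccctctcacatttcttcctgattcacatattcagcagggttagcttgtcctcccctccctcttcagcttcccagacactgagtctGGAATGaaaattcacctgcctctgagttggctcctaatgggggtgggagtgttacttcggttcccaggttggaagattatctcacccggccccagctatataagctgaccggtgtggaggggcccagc
PTPN14, chr1:214551603-214551852, minus strand: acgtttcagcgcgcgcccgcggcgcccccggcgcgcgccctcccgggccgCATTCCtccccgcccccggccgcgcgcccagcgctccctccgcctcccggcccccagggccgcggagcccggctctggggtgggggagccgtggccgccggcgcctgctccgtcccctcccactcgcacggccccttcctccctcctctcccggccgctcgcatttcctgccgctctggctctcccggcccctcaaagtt
TGFB2, chr1:218345086-218345335, plus strand: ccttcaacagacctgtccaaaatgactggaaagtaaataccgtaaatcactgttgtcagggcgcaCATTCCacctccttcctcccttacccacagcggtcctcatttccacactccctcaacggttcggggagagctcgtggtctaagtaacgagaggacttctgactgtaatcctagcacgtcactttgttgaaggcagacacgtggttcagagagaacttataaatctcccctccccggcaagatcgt
RASAL2, chr1:178093854-178094103, plus strand: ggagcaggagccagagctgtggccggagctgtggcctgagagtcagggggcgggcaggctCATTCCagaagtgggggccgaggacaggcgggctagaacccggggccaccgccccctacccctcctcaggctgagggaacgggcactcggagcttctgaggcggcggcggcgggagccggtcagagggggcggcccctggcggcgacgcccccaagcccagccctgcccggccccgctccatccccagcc

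CCN2 held 3 copies of the motif, beginning 169, 104 and 95 bases before the start, and ANKRD1 held 2, at 220 and 128 bases. Across the windows of 300 bases in the table (250 before to 50 after the start), either form of the motif on either strand occurred in 14.0% of 35116 promoters and in 11% of the 12081 that belong to tested genes. The share was 13.0% among genes that rose (175 of 1342), 9.13% among genes that fell (114 of 1248) and 11% among genes not called (1043 of 9491). Among genes that rose by at least 1 it was 19.0% (11 of 58), among those that fell by at least 1 13.9% (14 of 101), and among the listed YAP and TAZ targets 35.0% (7 of 20). For genes that rose and also passed the interaction test the share was 14.7% (74 of 504), and for genes that fell and passed it 8.54% (38 of 445). The letters of AMOTL2, AXL, AJUBA, GADD45B, NT5E and WWC1, listed targets that also rose, held no copy in this window. LATS2 held 1 copy in the 300 bases but none in the 250 before the start. NAV3, DAPK1, CRYBG2, ANO2 and RAB30, which are not on the list and rose too, held none in either.

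Listed YAP and TAZ targets mostly rose. Of 25 tested, 16 rose and 1 fell, with a median log2 fold change of 0.39 against -0.003 over all genes tested, and 12 of the 16 also passed the interaction test. CCN1, a secreted matricellular protein, went from 835, 870.5 and 813 CPM to 1110.0, 1248 and 1035 CPM, a log2 fold change of 0.43 ± 0.06. CCN2, its relative formerly called CTGF, went from 588, 524 and 518 CPM to 796, 899 and 767 CPM, a change of 0.60 ± 0.09 (adjusted p = 0.000708). Every induced library stood above every uninduced one for both genes, and the GFP libraries held 355 to 435 CPM of CCN2, below the uninduced level. AMOTL2, a scaffold that holds YAP at junctions, rose from 431, 451 and 398 CPM to 692, 808 and 640.5 CPM (0.74 ± 0.08).

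Further listed targets rose. AXL, a receptor tyrosine kinase, rose by 0.29 ± 0.05, AJUBA, a LIM-domain inhibitor of LATS kinases, by 0.35 ± 0.04, and DLC1, a GTPase-activating protein, by 0.58 ± 0.06. TGFB2, the TGF-beta ligand whose promoter is shown above, went from 625, 665 and 644 CPM to 884, 960.3 and 801 CPM (0.45 ± 0.07). ANKRD1, a muscle ankyrin repeat protein used as a YAP reporter gene, stood at 236, 210.4 and 224 CPM without doxycycline and 383, 457 and 452 CPM with it. Its groups did not overlap, but its call (0.95 ± 0.28, adjusted p = 0.0423) was lost without any 1 of the 6 YAP5SA libraries and with no filter on low counts. ANKRD1 also did not pass the interaction test (adjusted p = 0.24). The listed target that fell was TGM2, a transglutaminase (-1.0 ± 0.24), and this call was lost without induced replicate 1 or 3, with no filter, and in a fit of the 6 YAP5SA libraries alone. TGM2 was chosen for naming after its values were seen, as were other genes named only to complete a count.

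**Figure D1:**
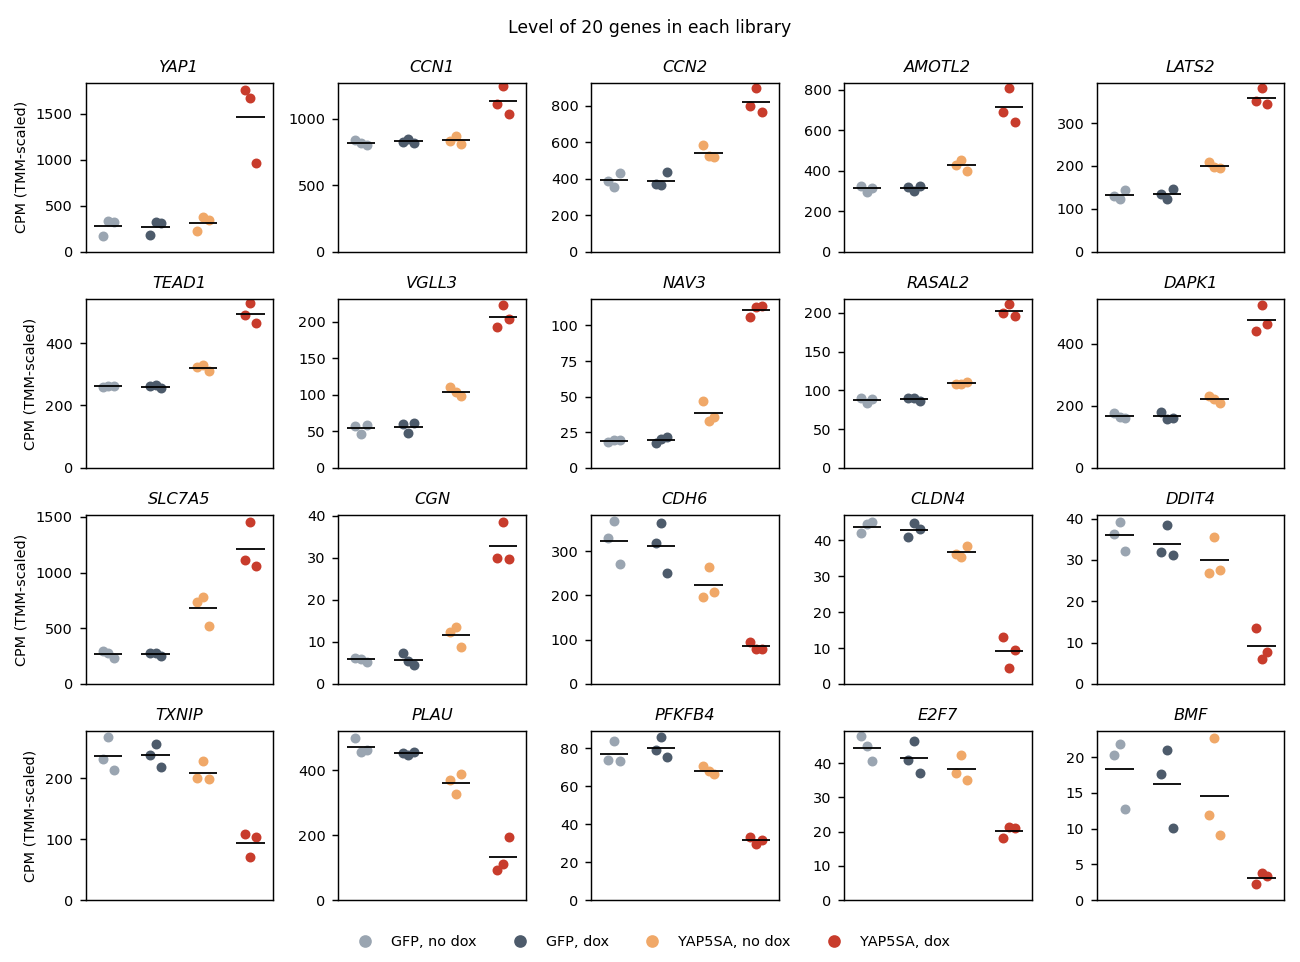
CPM of 20 genes in each of the 12 libraries; each point is 1 library, the bar is the mean of 3, and each axis starts at 0. The induced YAP5SA libraries (red) stand apart from the uninduced ones (orange) in every panel, while the GFP libraries with and without doxycycline (grey) overlap.

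Of 24 kinases, adaptors and upstream regulators of the Hippo pathway tested, 10 rose, 3 fell and 11 were not called; LATS2, WWC1, PTPN14 and AMOTL2, among those that rose, are also on the target list. LATS2, a kinase that phosphorylates YAP, went from 209, 198 and 196 CPM to 352, 381 and 345 CPM (0.84 ± 0.07, adjusted p = 7.02e-06). The groups were well separated, and the interaction test was passed as well (adjusted p = 0.000533). WWC1, the scaffold KIBRA that activates LATS kinases, rose from 476, 461 and 476 CPM to 662, 722 and 660.4 CPM (0.53 ± 0.04), its paralogue WWC2 rose by 0.64 ± 0.07, and PTPN14, a phosphatase that binds YAP, by 0.43 ± 0.05. MOB1B, a LATS co-activator, rose by 0.34 ± 0.06 and FAT4, an upstream cadherin, by 0.54 ± 0.07. The 3 that fell were all kinases of the pathway's upper tiers: MAP4K4 (-0.29 ± 0.03), TNIK (-0.30 ± 0.04) and TAOK2 (-0.24 ± 0.04).

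The DNA-binding partners moved in different directions. TEAD1 rose from 324, 329.8 and 311 CPM to 491, 528 and 463 CPM (0.62 ± 0.04, adjusted p = 3.91e-06) and TEAD4 from 16.9, 17.7 and 15.3 CPM to 22.3, 23.5 and 22.4 CPM (0.45 ± 0.07). TEAD2 fell from 27.9, 34.2 and 27.0 CPM to 19.2, 17.1 and 16.7 CPM (-0.75 ± 0.11), and TEAD3 fell by 0.15 on the log2 scale, a call lost without uninduced replicate 1 or 2 or induced replicate 1 or 3. VGLL3, a cofactor that also binds TEADs, went from 110.3, 103 and 98.2 CPM to 192, 222 and 204 CPM (0.99 ± 0.11). TEAD1, TEAD2, TEAD4 and VGLL3 had libraries that did not overlap between the groups, and they also passed the interaction test.

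Among the 15 genes with the largest rises beside YAP1 (at least 2 CPM in the higher group and libraries that did not overlap) were several with no listed link to YAP. NAV3, a protein that binds microtubule tips, went from 46.8, 32.7 and 35.6 CPM to 106, 113 and 114 CPM (1.53 ± 0.11, adjusted p = 7.57e-06). CGN, which encodes the tight junction protein cingulin, rose from 12.3, 13.6 and 8.86 CPM to 29.98, 38.4 and 29.8 CPM (1.5 ± 0.18). ANKRD2, a relative of ANKRD1, rose from 5.17, 5.002 and 6.72 CPM to 16.2, 14.04 and 16.6 CPM (1.47 ± 0.12), and CRYBG2, a crystallin-domain protein, from 18.2, 13.97 and 15.2 CPM to 40.98, 42.01 and 46.6 CPM (1.45 ± 0.09). These 4 genes passed the interaction test too, with adjusted p between 0.000224 and 0.00783. KL, which encodes the FGF23 co-receptor Klotho, rose to 8.82, 6.08 and 10.4 CPM from 2.92, 2.86 and 3.4 CPM (1.46 ± 0.21). The 15th place was held by CRYBG2, and AJAP1, a junction-associated membrane protein at 1.43 ± 0.12, was just outside.

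ITGB2, the beta-2 chain of leukocyte integrins, went from 16.9, 22.2 and 19.2 CPM to 87.2, 74.3 and 59.8 CPM (1.92 ± 0.39, adjusted p = 0.00783). It did not pass the interaction test (adjusted p = 0.102). The GFP libraries held only 4.55 to 13.9 CPM. The summed level of the 6 leukocyte markers tested moved with it, from 20.8 to 24.6 CPM in the uninduced to 62.1 to 88.8 CPM in the induced libraries, and ITGB2 made up most of that sum. PTPRC, the pan-leukocyte gene CD45, stood at a mean of 0.949 CPM without and 0.987 CPM with doxycycline (0.06 ± 0.30), CD68 had 5 reads in all 3 induced libraries, and TYROBP, MS4A1 and HLA-DRA had no read in any library. ITGAX, which encodes an alpha partner of ITGB2, fell from 0.592, 0.476 and 0.633 CPM to 0.237, 0.237 and 0.197 CPM (-1.32 ± 0.28). The other alpha chain on the list, ITGAM, fell by 1.84 on the log2 scale, a call lost without uninduced replicate 1 or 3 or induced replicate 1 or 2; with a minimum of 1 CPM in 3 libraries neither alpha chain was tested, and DESeq2 gave neither an adjusted p.

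The most certain rises were moderate in size. RASAL2, a GTPase-activating protein for Ras, had the smallest p: 108, 108 and 111 CPM became 199.5, 212 and 196 CPM (0.89 ± 0.04, adjusted p = 2.82e-07). RASAL2-AS1, a long noncoding RNA annotated just upstream on the opposite strand (chromosome 1, 178091508 to 178093984, where RASAL2 begins at 178094141), went from 2.803, 3.25 and 3.48 CPM to 14.4, 11.6 and 10.5 CPM (1.93 ± 0.29). DAPK1, a calcium/calmodulin-dependent kinase linked to cell death, rose from 232, 223 and 209 CPM to 443, 527 and 463 CPM (1.11 ± 0.07). Replicates of these genes lay close together compared with the gap between the groups. RAB30, a small GTPase of the Golgi, rose by 0.98 ± 0.06, ANO2, a calcium-activated chloride channel, by 1.27 ± 0.08, and DNAJC6, the clathrin-uncoating cofactor auxilin, by 1.09 ± 0.07. The lncRNA LINC02331 (2.01 ± 0.36) and LHX4, a homeobox factor (1.96 ± 0.26), rose from low levels, at most 1.35 CPM in an uninduced library. Neither passed the interaction test (adjusted p = 0.111 and 0.126).

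The largest falls included regulators of cell death, nutrient signalling and adhesion. BMF, a pro-apoptotic protein of the BH3-only class, went from 11.9, 22.6 and 9.09 CPM to 2.29, 3.79 and 3.35 CPM (-2.21 ± 0.45, adjusted p = 0.00755). CLDN4, a tight junction claudin, fell from 36.1, 35.4 and 38.5 CPM to 13.2, 4.54 and 9.47 CPM (-2.02 ± 0.25). GDF5, a BMP-family ligand, fell from 42.9, 35.7 and 38.1 CPM to 14.0, 9.94 and 17.4 CPM (-1.5 ± 0.15). For all 3 genes every induced library was below every uninduced one, and CLDN4 and GDF5 passed the interaction test. SYT12, a synaptotagmin (-1.61 ± 0.24), and NEURL3, a ubiquitin ligase (-1.78 ± 0.25), fell at lower levels and passed it as well.

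PLAU, the urokinase plasminogen activator, went from 369, 326 and 388 CPM to 93.1, 112 and 194 CPM (-1.44 ± 0.22), with the weakest fall in induced replicate 3. C10orf55, annotated on the opposite strand across PLAU (chromosome 10, 73909969 to 73922777, against 73909177 to 73917497 for PLAU), fell by 1.49 on the log2 scale; the strand setting of the counting is not given in the sources used here, so reads of the pair cannot be told apart. AKR1C3, an aldo-keto reductase, fell from 1.303, 1.31 and 1.305 CPM to 0.356, 0.0394 and 0.316 CPM (-2.44 ± 0.34), and its family has near-identical members among which reads may be split.

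Genes known as FOXO targets, which insulin and growth factor signals normally hold down, fell more often than they rose: 11 of 25 fell and 1 rose, with a median log2 fold change of -0.32, and 8 of the 11 passed the interaction test. TXNIP, an inhibitor of thioredoxin and glucose uptake, went from 199, 229 and 199 CPM to 108, 71.4 and 104 CPM (-1.15 ± 0.15). DDIT4, which inhibits the growth kinase complex mTORC1, went from 26.96, 35.6 and 27.5 CPM to 13.5, 5.996 and 7.85 CPM (-1.72 ± 0.24). Neither gene overlapped between the groups. TP53INP1 (-0.60 ± 0.05), SESN3 (-0.68 ± 0.08), SESN1 (-0.46 ± 0.08) and KLF6 (-0.39 ± 0.05) fell by less; sestrins restrain mTORC1 when leucine is short. The gene that rose was CITED2, a CBP/p300-binding factor (0.42 ± 0.07).

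Of 17 mTORC1 inhibitors and nutrient sensors 5 fell and 1 rose. Besides DDIT4, SESN1 and SESN3 the falls were those of CASTOR1 and FLCN, and the count came to 3 without uninduced replicate 1, induced replicate 1 or induced replicate 2, and in the 6 YAP5SA libraries alone. The rise was that of PRKAA2, a catalytic subunit of the energy sensor AMPK, from 58.3, 57.95 and 62.1 CPM to 94.05, 87.6 and 94.5 CPM (0.63 ± 0.06). Amino acid transporters showed the reverse balance, with 6 of 18 higher and 1 lower. SLC7A5, the large neutral amino acid transporter LAT1, went from 733, 779 and 524 CPM to 1118, 1456 and 1057 CPM (0.83 ± 0.16), and its partner SLC3A2 rose by 0.45 ± 0.08. SLC7A5 did not pass the interaction test (adjusted p = 0.0635). The GFP libraries held 236 to 295 CPM of SLC7A5, so its uninduced level in the YAP5SA line was already above theirs. SLC1A3, a glutamate and aspartate transporter, rose from 15.2, 15.4 and 14.0 CPM to 32.3, 40.0 and 32.4 CPM (1.23 ± 0.11), and the cationic transporters SLC7A1 (0.50 ± 0.09) and SLC7A2 (1.10 ± 0.15) rose too. The transporter that fell was SLC6A6, for taurine (-1.07 ± 0.22).

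Of 20 genes of the integrated stress response, whose factor ATF4 induces transporters and synthetases, 1 rose (CHAC1, 0.38 ± 0.09) and 4 fell: ATF3 (-0.53 ± 0.08), CEBPB (-0.38 ± 0.06), GDF15 (-0.99 ± 0.23) and ATF5 (-0.20 ± 0.05). GDF15 was lost without uninduced replicate 3 or induced replicate 1, and ATF5 without uninduced replicate 2 or induced replicate 1. Cytosolic tRNA synthetases showed 2 small rises (FARSB and YARS1) and 1 small fall (QARS1) among 20, none beyond 0.16 in size, and none of the 3 was called in the 6 YAP5SA libraries alone; QARS1 was lost without any 1 of the 6 and FARSB without any but induced replicate 1. Nucleolar genes of ribosome biogenesis rose in 6 of 23 cases and fell in none, by 0.20 to 0.29, for example UTP20 (0.29 ± 0.04) and NOLC1 (0.25 ± 0.05). Their median was 0.11. MYC stood at 93.7, 73.5 and 102 CPM and then 112, 101 and 134 CPM (0.37 ± 0.14, adjusted p = 0.106), with groups that overlapped.

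Hypoxia-responsive and glycolytic genes fell more often than they rose: 13 of 27 fell and 1 rose, with a median of -0.22, and 7 of the 13 passed the interaction test. PFKFB4, a kinase and phosphatase that sets fructose-2,6-bisphosphate, went from 70.5, 67.9 and 66.2 CPM to 33.1, 29.5 and 31.7 CPM (-1.12 ± 0.07, adjusted p = 2.1e-06). The replicates were tight and the groups far apart. KDM3A, a histone demethylase (-0.59 ± 0.07), BNIP3, a mitophagy receptor (-0.44 ± 0.05), and the glucose transporter SLC2A1 (-0.40 ± 0.05) fell, as did the enzymes ENO2 (-0.57 ± 0.12) and TPI1 (-0.25 ± 0.04). PGK1, also glycolytic, was the one that rose (0.21 ± 0.05), a call lost without uninduced or induced replicate 1. VEGFA (-0.43 ± 0.23, adjusted p = 0.246) and HK2 (0.09 ± 0.09) did not pass the test. The largest positive log2 fold change of the list, 0.74, was not called either. SLC2A3, another glucose transporter, had 13407 raw reads in the uninduced and 22438 in the induced libraries.

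Of 24 p53 target genes 11 fell and none rose (median -0.24); with no filter on low counts 7 fell. TP53I3, an oxidoreductase, went from 65.9, 66.3 and 65.8 CPM to 49.2, 51.9 and 56.5 CPM (-0.33 ± 0.05). PMAIP1, the BH3-only protein NOXA, fell by 0.31 on the log2 scale (SE 0.05) and RRM2B, a ribonucleotide reductase subunit, by 0.25 (SE 0.05). CDKN1A, the cell-cycle inhibitor p21, stood at 736, 662 and 789.8 CPM and then 561, 434 and 637 CPM. Its groups did not overlap, but it was not called (-0.42 ± 0.15, adjusted p = 0.0814). Within the BCL2 family 4 of 16 fell and 1 rose (31.2% called against 19.1% of all genes tested). The falls were those of BH3-only killers (BMF, BCL2L11, BBC3 and PMAIP1), while BAD, BID, BIK and HRK, of the same class, were not called. The rise was that of BCL2, the survival gene, from 6.43, 6.51 and 6.45 CPM to 10.8, 12.98 and 10.8 CPM (0.84 ± 0.12). In the interaction test 2 genes of the family were lower and 1 was higher. BCL2L11, which encodes BIM, fell by 0.93 on the log2 scale (SE 0.17), and the call of BBC3 was lost without uninduced replicate 3.

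Of 31 genes of the G1/S transition and DNA replication 5 fell and 1 rose, 19.4% called against 19.1% of all genes tested, with a median of -0.19; 8 fell by DESeq2, without uninduced replicate 3 and without induced replicate 2. E2F7, a repressor of the E2F programme, went from 37.2, 42.3 and 35.1 CPM to 18.1, 21.2 and 21.1 CPM (-0.92 ± 0.10). PCNA, the DNA polymerase clamp, fell by 0.48 on the log2 scale (SE 0.07), and MCM7, a subunit of the replicative helicase, by 0.39 (SE 0.07). CDT1 and TYMS completed the falls, and the rise was that of CCND3 (0.20 ± 0.06), lost without uninduced replicate 3 or induced replicate 2. None of 23 mitosis genes was called, although all 23 had a positive fold change with a median of 0.22. Induced replicate 1 stood apart for these genes: MKI67 went from 139, 142 and 133 CPM to 229, 143 and 131 CPM (0.28 ± 0.32, adjusted p = 0.601), and ASPM from 24.8, 29.4 and 27.7 CPM to 51.3, 31.9 and 30.97 CPM. The other two induced libraries overlapped or lay near the uninduced ones.

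Cytoskeletal genes changed in both directions, and the contractile actin list was called in 30.8% of cases against 19.1% of all genes tested. Of 26 genes of the contractile actin cytoskeleton 4 rose and 4 fell, all by less than 0.33; CALD1, the actin- and myosin-binding caldesmon, rose by 0.26 ± 0.05, and FLNA, the cross-linker filamin A, fell from 4733, 4730.0 and 4784 CPM to 4400.0, 4156 and 4262 CPM (-0.15 ± 0.04). TPM4, PDLIM7 and CNN1 fell too (CNN1 not without uninduced replicate 1 or 2 or induced replicate 1 or 3), and CNN2, DIAPH3 and LIMCH1 rose; without induced replicate 1 only 2 rose. RHOB, an endosomal small GTPase, had a mean of 134 CPM without and 65.2 CPM with doxycycline (-1.04 ± 0.18). ROCK1, a kinase that promotes actomyosin contraction, rose from 209, 212 and 206 CPM to 280.2, 285 and 265 CPM (0.41 ± 0.04), and CDC42EP3, a Cdc42 effector that binds septins, rose by 0.41 ± 0.05. ARHGEF40 (-0.45 ± 0.06) and KALRN (-0.57 ± 0.08), both exchange factors, fell.

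Among 34 junction genes 6 rose and 7 fell, and the list's median was 0.0004. Beside CGN and AJAP1, rises were seen for OCLN, the tight junction protein occludin (0.53 ± 0.05), TJP1, the scaffold ZO-1 (431, 435 and 436 CPM becoming 530.4, 546 and 523 CPM, 0.30 ± 0.03), the desmosomal PKP2 (0.65 ± 0.12) and CTNNB1 (0.15). CDH6, a kidney cadherin, fell from 196, 264 and 208 CPM to 95.5, 79.4 and 79.7 CPM (-1.39 ± 0.17), as did CLDN4, given above, and JUP, the plakoglobin shared by junctions and desmosomes (-0.36 ± 0.05). Tight junction genes thus did not move together. CGN, TJP1 and OCLN were higher and the claudin CLDN4 lower. CGNL1 had 2421 raw reads in the uninduced and 1665 in the induced libraries, F11R had 4649 and 3467, and MARVELD2 had 2042 and 2054. Not all 7 falls of the list are named here. Of 17 integrins 3 rose and 2 fell (29.4% called against 19.1% of all genes tested). ITGA6 (0.34 ± 0.05) and ITGB8 (0.50 ± 0.08) rose beside ITGB2, and ITGB3, a vitronectin receptor chain, fell from 421, 398 and 471 CPM to 323, 223 and 306 CPM (-0.60 ± 0.11); the other fall, of ITGB6, was lost without uninduced replicate 3 or induced replicate 1.

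Of 16 keratin and other intermediate filament genes 2 rose and 6 fell. KRT18, a keratin of simple epithelia with many pseudogene copies among which reads may be split, went from 550.1, 571 and 505 CPM to 721, 903 and 701 CPM (0.52 ± 0.10). KRT19 moved the other way, from 782, 891 and 791 CPM to 562, 559 and 556 CPM (-0.55 ± 0.05). KRT4 rose at a low level, from 0.671, 1.11 and 0.277 CPM to 2.77, 3.63 and 1.46 CPM (1.93 ± 0.41), and did not pass the interaction test (adjusted p = 0.607). NES, the neural and podocyte filament nestin, fell from 19.6, 23.4 and 20.5 CPM to 11.2, 12.2 and 12.7 CPM (-0.81 ± 0.08), and KRT15 fell by 0.97 on the log2 scale (SE 0.16).

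Matrix genes moved in both directions as well. Of 31 interstitial collagens and glycoproteins 4 rose and 8 fell; the falls numbered 5, 5 and 4 without uninduced replicate 1, uninduced replicate 3 and induced replicate 2. COL12A1, a fibril-associated collagen, rose from 219, 192 and 204 CPM to 360.5, 357 and 335 CPM (0.78 ± 0.08), and THBS1, the matricellular thrombospondin, from 3553, 3381 and 3559 CPM to 4708, 5375 and 4944 CPM (0.52 ± 0.06). FBLN5, an elastic-fibre protein, rose by 0.71 ± 0.10, and the remaining rise, of COL11A1, was lost without any 1 of 5 libraries (all but induced replicate 1). FN1, the fibronectin gene, fell by 0.25 on the log2 scale (SE 0.05), and COL6A2 by 0.25 (SE 0.04). Of 22 basement membrane genes 3 rose and 3 fell (27.3% called against 19.1% of all genes tested). COL4A4, a chain of the mature glomerular basement membrane collagen, went from 70.6, 73.04 and 73.1 CPM to 104, 112 and 103 CPM (0.56 ± 0.06). Its partner COL4A3 stood at 17.5, 19.4 and 14.2 CPM and then 23.5, 26.2 and 18.8 CPM, with groups that overlapped; its call (adjusted p = 0.0479) was lost without any of uninduced replicates 1 and 3 and induced replicates 1 and 2. LAMA2 rose from 4.07, 4.33 and 3.598 CPM to 10.01, 9.27 and 7.58 CPM (1.16 ± 0.19). The falls, of LAMA3, LAMB1 and AGRN, numbered 1 without uninduced replicate 3 or induced replicate 1 and 5 without induced replicate 3.

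Among 23 proteases of the matrix, their inhibitors and plasminogen activators 5 rose and 5 fell. The gelatinase MMP2 fell from 103, 105 and 116 CPM to 70.6, 60.9 and 76.7 CPM (-0.64 ± 0.07) and its activator MMP14 from 624, 668 and 682 CPM to 470.3, 471 and 532 CPM (-0.42 ± 0.06). Both plasminogen activators fell: PLAU, given above, and PLAT (means of 209.9 and 105.6 CPM, -0.99 ± 0.19), while the urokinase receptor PLAUR rose by 0.25 ± 0.05. The inhibitor TIMP3 rose from 23.02, 23.02 and 19.8 CPM to 33.1, 35.03 and 34.6 CPM (0.64 ± 0.07), and the aggrecanase ADAMTS5 rose by 0.39 ± 0.06. ADAMTS1 (0.27 ± 0.05) and ADAMTS12 (0.38 ± 0.08) completed the rises, and MMP24 the falls, the latter lost without uninduced replicate 1 or 2 or induced replicate 1 or 3.

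Secreted ligands of growth factor receptors rose in 7 of 29 cases and fell in 3. NRG1, an ERBB ligand, went from 133, 119 and 131 CPM to 185, 214 and 196 CPM (0.63 ± 0.07), and EDN1, the vasoconstrictor endothelin-1, from 190.3, 179 and 175 CPM to 256, 284 and 259 CPM (0.56 ± 0.05). HBEGF (0.51 ± 0.10) and FGF2 (0.43 ± 0.07) also rose. ANGPTL4, a lipase inhibitor secreted by injured podocytes, fell from 95.98, 79.7 and 80.4 CPM to 46.4, 40.7 and 49.7 CPM (-0.91 ± 0.10). The other two falls were those of VEGFC and PDGFA, the latter lost without uninduced replicate 1 or 2 or induced replicate 2 or 3. Receptor tyrosine kinases had a median of 0.29, with 9 of 25 higher and 4 lower. EPHA2, an ephrin receptor, went from 293, 282 and 291 CPM to 407, 417 and 392 CPM (0.49 ± 0.04, adjusted p = 4.16e-06). EGFR, a receptor for HBEGF, rose by 0.33 ± 0.04, and PDGFRB, the PDGF receptor of mesenchymal cells, from 13.7, 14.1 and 10.9 CPM to 21.9, 28.5 and 21.5 CPM (0.90 ± 0.13). DDR1, a collagen receptor, fell from 209, 222 and 228 CPM to 155, 135 and 160.5 CPM (-0.55 ± 0.06). TYRO3 (-0.34 ± 0.07) and EPHB4 (-0.36 ± 0.06) fell too, as did MET, whose call was lost without uninduced replicate 1 or 3 or induced replicate 2 or 3.

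In the TGF-beta and BMP pathways 5 of 28 genes rose and 5 fell; with no filter, in the 6 YAP5SA libraries alone, and without uninduced replicate 2 or 3, 3 fell. TGFB2 rose, as did FSTL3, an activin antagonist (266, 284 and 259.7 CPM becoming 385, 459.6 and 405 CPM, 0.62 ± 0.08), SMAD3 (0.21), BMP4 (0.73 ± 0.16) and ID2 (0.50 ± 0.12). GDF5 and SMAD7, the inhibitory SMAD (-0.23 ± 0.04), fell; ID1, SMAD6 and SKIL completed the falls. ID1 was lost without uninduced replicate 3, SMAD6 without uninduced replicate 1 or 2 or induced replicate 1, and SKIL without any library but uninduced replicate 1. In the WNT and NOTCH list of 24 genes 3 rose and 7 fell; without uninduced replicate 1 or 3 only 1 rose. FZD1, a WNT receptor, rose by 0.69 ± 0.07 (the other two rises were those of FZD4 and LGR4, each lost without 4 or more of the 6 libraries in turn), NOTCH1 fell by 0.52 on the log2 scale (SE 0.07), and HES1, a NOTCH target, fell by 1.11 (SE 0.24).

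Cytokine and chemokine genes had the lowest median among lists with at least 8 tested members, -0.37, with 7 of 27 lower and 2 higher. CXCL8, the neutrophil chemokine interleukin-8, went from 19.7, 16.4 and 21.9 CPM to 8.42, 8.21 and 14.01 CPM (-0.92 ± 0.18). CSF2, which encodes the growth factor GM-CSF, fell from 15.5, 12.1 and 11.7 CPM to 5.97, 3.35 and 5.41 CPM (-1.42 ± 0.20), and CX3CL1, the membrane-bound fractalkine, by 0.95 on the log2 scale (SE 0.12). CCL11, the chemokine eotaxin, moved the other way, from 7.18, 4.49 and 7.59 CPM to 17.2, 14.2 and 22.8 CPM (1.49 ± 0.23), and IL18 rose by 0.65 ± 0.11. IL6 was not called (0.11 ± 0.08). Of 19 NF-kB subunits and targets 5 fell and none rose (26.3% called against 19.1% of all genes tested). The falls numbered 3 with no filter, without uninduced replicate 1 and without induced replicate 2. TNFAIP8 (-0.64 ± 0.10), BCL3 (-0.64 ± 0.11) and SOD2 (-0.46 ± 0.08) were among them, and VCAM1 and NFKBIZ were the calls lost.

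Of 26 immediate early genes and MAPK feedback regulators 2 rose and 7 fell. JUND, an AP-1 subunit, fell from 82.2, 80.98 and 76.7 CPM to 52.4, 45.05 and 56.2 CPM (-0.64 ± 0.07), and IER3 by 0.49 on the log2 scale (SE 0.05). The MAPK phosphatases split: DUSP1 (0.38 ± 0.05) and DUSP5 (0.54 ± 0.09) rose and DUSP7 fell (-0.60 ± 0.08). Clock genes were called in 11 of 18 cases, 4 higher and 7 lower. CLOCK rose (0.36 ± 0.05) while its relative NPAS2 fell (-0.62 ± 0.11), and NR1D2 rose (0.36 ± 0.08) while its paralogue NR1D1 fell (-0.59 ± 0.13). BHLHE41, a transcriptional repressor of the clock, fell most (-1.17 ± 0.23). CRY1 and HLF also rose, but only 2 of the 4 rises were called without uninduced replicate 1. None of the 18 fell in the interaction test and 1 was higher there, so for nearly all of them a difference from the GFP line was not shown.

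Lipid synthesis and antioxidant genes mostly fell where they were called. The lipid synthesis list was called about as often as all genes tested (20.8% against 19.1%). Of 24 genes of cholesterol and fatty acid synthesis 4 fell and 1 rose; SREBF1, their master regulator, went from 47.5, 48.6 and 47.8 CPM to 35.8, 32.98 and 34.8 CPM (-0.47 ± 0.04), and the desaturase SCD (-0.60 ± 0.10), INSIG1 (-0.60 ± 0.10) and the elongase ELOVL6 (-0.39 ± 0.07) fell with it, while MSMO1 rose (0.25 ± 0.05). Of 19 NRF2 targets and aldo-keto reductases 6 fell and 2 rose; the falls numbered 3 without uninduced replicate 3, induced replicate 1 or induced replicate 2, and the rises, of NFE2L2 and GCLC, 1 without uninduced replicate 1 or 2 or induced replicate 1 or 3. NQO1, a quinone reductase, fell from 35.2, 37.5 and 40.8 CPM to 22.8, 20.8 and 29.6 CPM (-0.63 ± 0.12). TFEB, the master factor of lysosome genes, fell from 16.98, 16.5 and 17.1 CPM to 10.3, 10.7 and 12.8 CPM (-0.58 ± 0.08), and ATG16L2 by 0.70 on the log2 scale (SE 0.12), among 25 autophagy and lysosome genes; LAMP2 fell and GABARAPL2 rose by less, both lost without uninduced replicate 1 or 3, LAMP2 also without induced replicate 2 and GABARAPL2 also without induced replicate 1 or 3. The other 21 of the 25 autophagy and lysosome genes were not called, so the share called was below the 19.1% of all genes tested. No mitochondrially encoded gene of 13 was called, and all 13 fold changes lay between 0.01 and 0.11.

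Guidance genes changed in 12 of 29 cases, 6 in each direction. SLIT2, the ligand of ROBO receptors, which podocytes express, went from 15.9, 15.3 and 14.4 CPM to 28.8, 31.99 and 29.4 CPM (0.98 ± 0.07, adjusted p = 3.91e-06). SEMA7A, a membrane-anchored semaphorin, rose by 0.65 ± 0.11, and NTN4, a basement membrane netrin, by 0.49 ± 0.06. SEMA4B (-0.71 ± 0.08), the netrin NTN1 (-0.78 ± 0.15) and NRP1, a receptor for semaphorins and VEGF (-0.57 ± 0.12), fell.

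Defining markers of mature podocytes were nearly absent. NPHS1, for nephrin, had 3 reads in the 3 induced and 7 in the 3 uninduced libraries, and WT1 had 27 and 26; neither passed the filter on low counts. SYNPO, the actin-associated synaptopodin, was well expressed, at 474, 498 and 483 CPM and then 514, 550.0 and 499.6 CPM, and was not called (0.10 ± 0.06). PODXL, the main sialoprotein of the podocyte surface, overlapped between the groups (-0.34 ± 0.35). The label's cell type thus rests here on genes such as SYNPO and KIRREL1, not on the slit diaphragm protein nephrin.

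Of 24 podocyte markers tested 3 rose and 4 fell (29.2% called against 19.1% of all genes tested). The rises were those of COL4A3, COL4A4 and TCF21, a podocyte transcription factor (0.67 ± 0.15). The falls included those of KIRREL1, a relative of nephrin (472, 513 and 471 CPM becoming 383, 385 and 390.1 CPM, -0.33 ± 0.04), the transcription factor FOXC1 (-0.63 ± 0.10), and NES. Among 19 markers of parietal epithelial cells, which line the opposite wall of Bowman's capsule, 2 rose and 5 fell. ANXA3 (0.28 ± 0.04) and KRT18 rose. CD44, which marks their activated state, fell from 902, 999 and 909 CPM to 718, 717 and 722 CPM (-0.38 ± 0.06), and AKAP12, an anchoring protein, from 498, 508 and 505 CPM to 268, 299 and 341 CPM (-0.74 ± 0.07), beside CDH6 and KRT19, given above, and VCAM1. Summed levels were 6270.0 to 6560.0 CPM uninduced and 5730.0 to 5970.0 CPM induced for the parietal list, and 6670.0 to 6940.0 CPM and 6500.0 to 6880.0 CPM for the podocyte list. In bulk RNA fewer cells of a type and less RNA per cell cannot be told apart.

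Markers of other cells were low or mixed, and their part in the results was not tested. The 6 endothelial markers tested summed to 90.0 to 96.7 CPM uninduced and 81.2 to 82.0 CPM induced; PECAM1, the defining endothelial surface gene, had no read in the YAP5SA libraries and CDH5 had 7 induced and 6 uninduced reads. ENG fell by 0.22 on the log2 scale (SE 0.05), TEK rose at under 1 CPM, a call lost without uninduced or induced replicate 1, and VWF rose from 0.829, 0.794 and 0.909 CPM to 1.46, 1.58 and 1.499 CPM (0.84 ± 0.17). The 6 tubule markers tested summed to 183 to 187 CPM and 154 to 166 CPM, and UMOD and AQP2 had no read. The 8 mesangial, fibroblast and smooth muscle markers summed to 1950.0 to 2010.0 CPM and 1910.0 to 1960.0 CPM, with PDGFRB, GATA3 (0.39 ± 0.08) and LUM (0.44 ± 0.09) higher.

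The GFP line given doxycycline served as the control for the drug without YAP5SA. With edgeR none of the 17470 genes was called there (0%). Limma-voom called 0, DESeq2 1, and edgeR with the replicate number as a block 1. An unadjusted edgeR p below 0.05 was reached by 282 genes (1.61%), a smaller share than the 0.05 expected if no gene changed. The main fit had no block, although GFP libraries of the same replicate number were correlated, so it may be conservative here. Having 0 calls therefore does not show that the drug changed nothing. The same test had called 3338 genes in the YAP5SA line, where 5573 (31.9%) had an unadjusted p below 0.05. In the interaction 1202 genes (6.88%) differed between the lines, 629 with the more positive (3.6%) and 573 with the more negative response (3.28%) in the YAP5SA line. With the replicate number as a block the interaction count was 2418. Of the 1717 genes that rose 624 were also positive there, and of the 1621 that fell 567 were also negative, with 0 calls of opposite sign; together these are 1191 genes, 6.82% of those tested. The other 2147 genes called on induction did not pass, which does not show that they responded alike in both lines. Of the 102 genes that rose by at least 1, 36 passed the interaction test, and of the 166 that fell by at least 1, 67 did; their median log2 fold changes in the GFP line were 0.035 and -0.0324. Leaving out 1 library moved the count of interaction calls to between 750 and 1387, lowest without GFP with doxycycline replicate 1 (750), GFP without doxycycline replicate 3 (768) and uninduced replicate 1 (781).

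**Figure D2:**
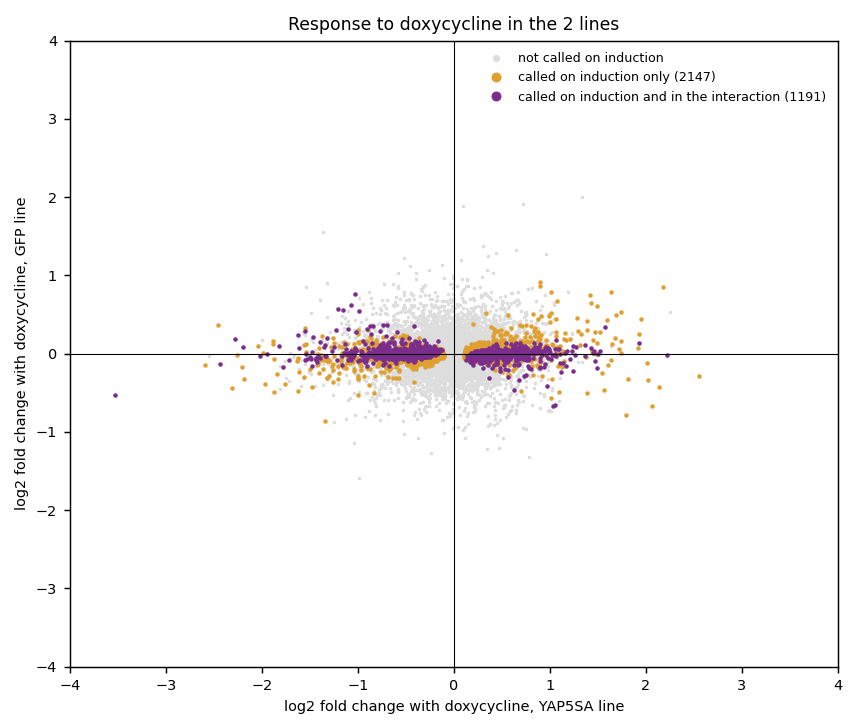
Log2 fold change with doxycycline of each tested gene in the YAP5SA line (horizontal) and the GFP line (vertical), on equal axes. The 1191 genes called on induction and in the interaction (purple) and the 2147 called on induction only (orange) spread along the horizontal axis. Most lie near 0 on the vertical one, where called genes changed by at least 1 on induction ranged from -0.865 to 0.847.

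The induced libraries were also described separately. To compare them, genes changed by at least 1 were called in a fit that left out 1 induced library, and the median log2 difference of that library from the uninduced mean was set beside that of the other two induced libraries. For induced replicate 3, which held 969.8 CPM of YAP1, the 127 genes that rose had a median difference of 1.01 against 1.24 in the other libraries, and the 224 that fell had -0.796 against -1.33. For replicate 1, with 1757 CPM of YAP1, the medians were 1.34 against 1.26 over 87 genes that rose and -1.0 against -1.35 over 134 that fell. For replicate 2, with 1672 CPM, they were 1.24 against 1.28 over 93 genes and -1.13 against -1.26 over 115. A library left out of the choice of genes is expected to lie nearer 0 than those used for it. The genes also differ between the replicates, so the medians are a description and do not rank the libraries. With 3 libraries no relation between YAP1 and the response was tested. Without induced replicate 3 the number of genes called was 3363, against 2418 without replicate 1 and 2555 without replicate 2.

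**Figure D3:**
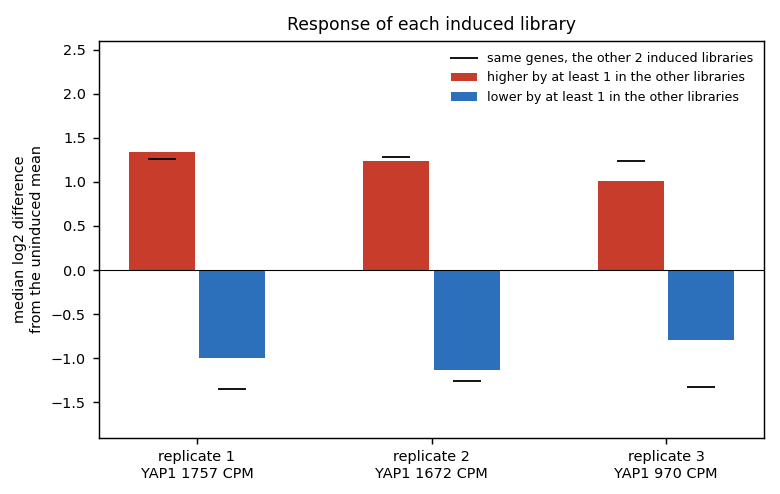
For each induced library, the median log2 difference from the uninduced mean of genes that rose (red) or fell (blue) by at least 1 in a fit without that library. Levels are edgeR log2 CPM with a prior count of 1 read. Black marks give the median of the same genes in the other 2 induced libraries. Replicate 3 has the smallest bars, 1.01 and -0.796, but each replicate's bars rest on a different set of genes, so heights are not directly comparable.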

How the data were processed

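The 12 libraries were made with the Universal Plus mRNA-Seq kit, per the labels' protocols. The authors deposited whole-number read counts per gene in 1 table. The submitters' processing notes name GRCh38 and the tools DRAGEN, Subread, featureCounts, DESeq2 and limma. Which step each served, its version and any use of strand are not stated there. The table held 62656 genes, of which 24935 had no count; symbols came from a table of identifiers and positions from GENCODE 29.

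edgeR 4.0.16 (R 4.3.3) was fitted to the counts: filterByExpr on the 4 groups (17470 genes kept), TMM scaling and a robust quasi-likelihood fit of the 12 libraries (8 residual degrees of freedom), with contrasts for doxycycline in each line and their difference (interaction). The common coefficient of variation was 7.48%. On simulated data with 67, 67 and 66 genes changed by 0.5, 1 and 2 on the log2 scale, the induction contrast recovered 30, 59 and 62 of them, with 15 unchanged genes called of 17250 tested. Replicates of 1 group differed by more than sampling noise (chi-square per degree of freedom 4.22 to 13.3), so each library counts once.

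The part of the series described, its 45 gene lists and the alternatives were chosen with earlier results of these data known, so lists are described by counts and medians, with no test. Named genes had the 15 largest rises or falls (no overlap between libraries, 2 CPM or more in the higher group), were among the 4 smallest p of a list or the 10 smallest of the induction or interaction contrast, or belonged to a fixed set; others were chosen after their values were seen, and some results are not reported here. Promoters came from RefSeq (GRCh38.p14). The alternatives tried were upper-quartile and RLE scaling, no filter or at least 1 CPM in 3 libraries, DESeq2 1.42.0, limma-voom (3.58.1), the 6 YAP5SA libraries alone, YAP1 left out of library sizes, a fold-change minimum, a block on the replicate number, and omission of each library. Replicate numbers come from the labels. Deviations from the group mean of libraries with 1 number correlated at -0.115, 0.328 and 0.306 across the YAP5SA groups, which are therefore not taken as paired, and at 0.274, 0.415 and 0.405 across the GFP groups, all above the minimum set for pairing; the block over the 12 libraries is given beside the GFP and interaction counts.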

Additional observations from a re-analysis of the deposited data

Results flagged for a closer look

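A test of the difference itself (the edgeR interaction contrast) found 1202 genes whose response to doxycycline was not the same in the YAP5SA and GFP lines, and the 10 with the smallest p are given here as the response in the YAP5SA line minus that in the GFP line, on the log2 scale. CRYBG2 (1.45), ANO2 (1.29), DAPK1 (1.11) and LINC02987 (1.07) had the largest positive differences of the 10. RAB30 (0.93), RASAL2 (0.87), RBMS2 (0.56) and SCAF11 (0.55) followed. PITPNM1 (-0.58), a phosphatidylinositol transfer protein, and PFKFB4 (-1.18) had negative ones. In all 10 genes the 3 induced libraries lay on the stated side of all 3 uninduced libraries.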

How the results depend on the processing

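Counts of 3 libraries a group limit the precision. In the simulation 44.8% of genes changed by 0.5 on the log2 scale were recovered. Far fewer genes were changed there than were called in these data, which makes the adjustment stricter, so the share may differ here. A gene not called is still not shown to be unchanged. The 3338 induction calls stayed within 1.5 times under other scalings, filters, tools, YAP1 left out of library sizes and the 6 YAP5SA libraries alone, and each of these shared 71.8 to 100% of the calls; upper-quartile scaling turned the majority, with 1654 higher and 1717 lower. A change of at least 1 left 268 (102 higher, 166 lower). Leaving out 1 library gave 2385 to 3363 calls on induction (1291 to 1710 higher, 1089 to 1653 lower) and 750 to 1387 in the interaction (428 to 684 higher, 322 to 703 lower). With the replicate number as a block over 12 libraries 4878 genes were called on induction, 2453 of them lower, and 2418 in the interaction (1162 higher, 1256 lower), while the calls of VCAM1 and COL3A1 were lost; with the block in the 6 YAP5SA libraries alone 5066 were called (2490 higher, 2576 lower), and among the calls lost were those of YAP1, TXNIP, PLAU, DDIT4, CLDN4, RHOB, SLC6A6, BTG2, SAV1, CASTOR1, KLHL4 and VCAM1. In the GFP line 3 genes (3 higher) were called with no filter, 1 (1 higher) by DESeq2 and 1 (1 higher) with the block, and 0 with RLE scaling, by limma-voom and without any 1 of the 6 GFP libraries; no other alternative was run there. Of 212 named genes 187 were called on induction, 153 of them under every alternative run, and none changed direction while called.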
